A study of Mus musculus with 199 samples.

Results

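Lysosome and cathepsin genes were examined in 199 RNA-seq libraries of mouse cells from small-cell lung cancer or its precursor. The 40 members were picked by gene symbol from a list, and all 40 were found among the 31581 genes of the deposited table. By role they were 8 cysteine cathepsins, 4 other proteases, the cathepsin inhibitor Cst3, 8 glycosidases, 6 genes of lipid handling and hydrolase cofactors, 5 membrane proteins, the regulator Tfeb and 7 genes of the V-ATPase proton pump. The KP1 line, with both copies of Rb1 and Trp53 deleted (Rb1-/-Trp53-/-), came from spheroid culture and from liver colonies in nude or F1 hosts. Nude mice lack a thymus and with it most T cells. F1 hosts are immunocompetent, so the hosts differ both in strain and in immunity, and the labels give neither the crossed strains nor ages. Laser microdissection of cryosections gave captures of 10 cells: 28 from spheroids, 33 from nude livers and 31 from F1 livers. Pool-and-split controls, libraries split from pooled material, numbered 20, 35 and 24. The RPC line (Rb1-/-Trp53-/-p130-/+Crebbp-/-), explanted cells of a stage before small-cell lung cancer, gave 24 spheroid captures and no pools. Single bulk libraries came from explanted cells of KP1, KP2 (Rb1-/-Trp53-/-Ptch1+/lacz), KP3 (Rb1-/-Trp53-/-Axin2+/lacz) and KP5 (Rb1-/-Trp53-/- BAT-GAL), so all lines lack Rb1 and Trp53. Each genotype is represented by 1 line, and no label ties a capture to an animal or a culture. The p-values therefore speak for the spread between captures, which may share an animal. For the pools they cover the splitting and amplification of pooled material alone, not differences between animals or cultures, so the number of split libraries is not a number of distinct samples.

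Lysosomes are acidic organelles in which proteins, glycans and lipids are broken down. The V-ATPase pumps protons into them, cathepsins cut proteins, glycosidases trim sugar chains, and small cofactors present lipids to their enzymes. Transcription factor EB, the product of Tfeb, is known to bind an E-box-type sequence in promoters of many lysosomal genes. In liver, Kupffer cells and other macrophages are rich in lysosomal proteases, and some cathepsins, such as Ctss and Ctsc, are best known from immune cells. Cathepsin Z, the product of Ctsz, is a cysteine carboxypeptidase that is also found outside cells.

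Total counts per library ran from 1007999 to 7616756 in captures and pools and from 17266203 to 42447973 in bulk. Levels are given as CPM, counts scaled to a sum of 1000000 over all genes without the 92 ERCC spike-in rows. CPM is not corrected for gene length, so it is compared here for 1 gene across groups and not between genes. The 9 neuroendocrine tumour markers had counts in all groups, with summed medians of 2024 CPM in KP1 spheroid, 1328 in nude liver, 1515 in F1 liver and 1270 in RPC captures. Of the deleted genes, Rb1 and Trp53 still had counts and did not pass the test between RPC and KP1, and Crebbp was 1.27 log2 units lower in RPC (edgeR adjusted p 0.0351). Gene-level counts do not separate deleted from kept exons and so do not check the deletions. No 2 libraries of a group held identical values. The counting is not stated to use strand, so shared exons of members called are noted beside the results.

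The members were unevenly detected. Ctsa, Ppt1 and Psap had counts in every capture of all 4 capture groups. By contrast 8 members were too low to be tested in any comparison of captures, and 28 were tested in all 4 of them. The low members were Ctsc, Ctsh, Ctso, Ctss, Gla, Lipa, Npc1 and Tfeb, with a median of at most 2.01 CPM in each capture group. Across the comparisons of captures, 19 of the 32 members tested in any of them (59.4%) passed an adjusted p under 0.05 at least once, and of all 9082 genes tested in any of them 46.2% did. Levels of single genes spread widely within a group. Ctsd, for example, had 0 to 487 CPM over the spheroid captures and 2.06 to 247 CPM over the spheroid pools.

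**Figure D1:**
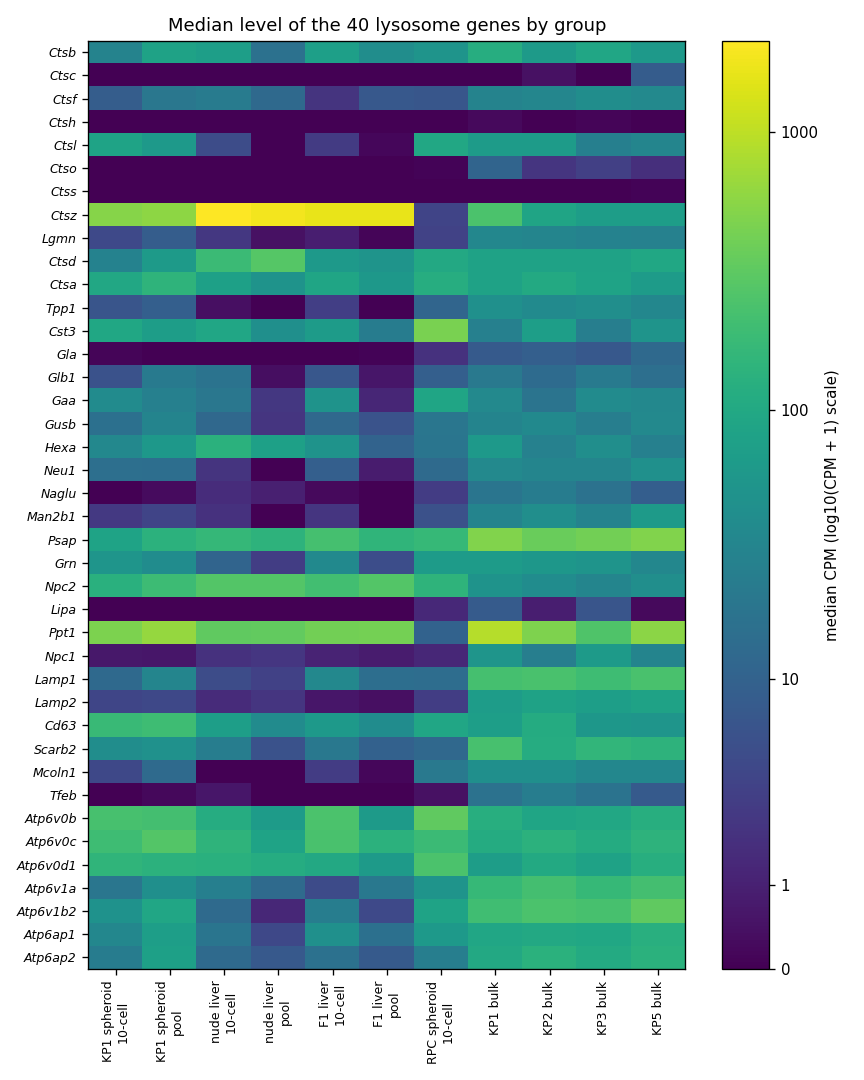
Rows are the 40 lysosome genes by role and columns are the groups, with colour for the median CPM of the group on a log10(CPM + 1) scale (single values for the bulk lines). Colours compare 1 gene across columns: Ctsz has medians of 1645 to 2131 CPM in liver and 3.82 CPM in RPC captures, and Ppt1 is 10.3 CPM in RPC captures.

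Ctsz (ENSMUSG00000016256, chromosome 2, 174427493 to 174439039, minus strand, GRCm38) differed by environment and by line. Its lowest, median and highest levels were 52.3, 536 and 1464 CPM in the 28 KP1 spheroid captures. In nude liver captures they were 533, 2131 and 7149 CPM, and in F1 liver captures 683, 1645 and 4639 CPM. The ranges overlapped, yet 26 of 33 nude captures and 20 of 31 F1 captures lay above the highest spheroid capture. The means were 628 ± 324 CPM (SD, n = 28) in spheroids, 2384 ± 1393 (n = 33) in nude liver and 1963 ± 977 (n = 31) in F1 liver. Against spheroids, Ctsz rose by a log2 difference of 1.81 ± 0.23 (SE) in nude liver, 3.50-fold (edgeR adjusted p 9.47e-10). In F1 liver it rose by 1.97 ± 0.22, 3.92-fold (edgeR adjusted p 1.05e-10). The genes were proposed for study with its liver level already known, so these values describe Ctsz and are no independent test.

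**Figure D2:**
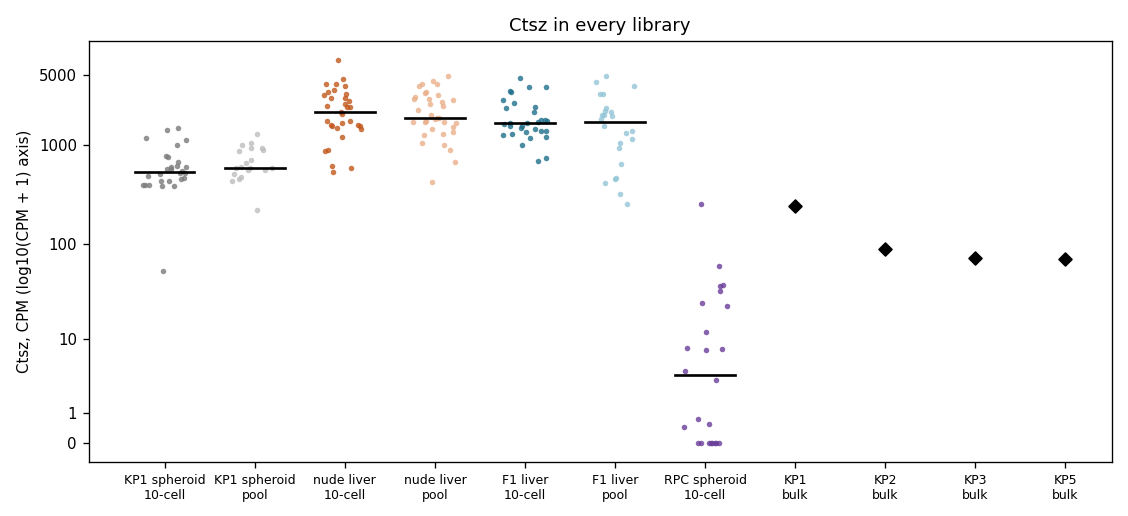
Each point is 1 library, the vertical axis is Ctsz in CPM on a log10(CPM + 1) axis, and bars are group medians; diamonds are the 4 bulk libraries. Liver captures and pools have medians between 1645 and 2131 CPM, KP1 spheroids between 536 and 587 CPM, and RPC captures 3.82 CPM.

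In the pools, Ctsz had 219, 587 and 1290.0 CPM (lowest, median and highest) in the 20 spheroid pools, 419, 1849 and 4945 in the 35 nude liver pools and 254, 1675 and 4936 in the 24 F1 liver pools. The log2 difference from spheroid was 1.90 ± 0.23 in nude liver pools (edgeR adjusted p 7.65e-10) and 1.93 ± 0.30 in F1 liver pools (edgeR adjusted p 4.46e-06). The direct test of whether captures and pools differ in the Ctsz effect did not pass. The difference was -0.15 ± 0.30 for nude liver (95% interval -0.74 to 0.44, adjusted p 0.901) and 0.06 ± 0.35 for F1 liver (-0.64 to 0.75, adjusted p 0.96). Between the hosts, Ctsz did not pass the test in captures (log2 difference F1 minus nude 0.20, 95% interval -0.21 to 0.62, adjusted p 0.542) or in pools (0.08, interval -0.39 to 0.55, adjusted p 0.869). In CPM the F1 levels were the lower ones in captures, with 21 of 31 below the nude median, and on average in pools (1824 against 2275 CPM). The fitted estimates, which use trimmed-mean scaling, have the opposite sign, so no direction is given for Ctsz between the hosts.

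Markers of several other cell types were higher in the liver groups. The 14 hepatocyte markers summed to medians of 1.11 CPM in spheroid, 911 in nude liver and 199 in F1 liver captures, with ranges of 0 to 83.6, 33.4 to 4485 and 0 to 2134 CPM. The 16 myeloid markers, chosen without lysosomal proteins, summed to 5.13, 42.4 and 64.5 CPM (ranges 0.237 to 138, 1.07 to 332 and 0.929 to 599). Of these, 14 had no count in any spheroid capture, Adgre1 and Timd4 none in any nude capture, and Clec4f, Marco and Timd4 none in any F1 capture. Endothelial, stellate and erythroid markers also had higher medians in the liver captures, 55.4, 198 and 551 CPM in nude liver and 3.73, 98.8 and 1622 in F1 liver against 0.438, 55.3 and 0 in spheroids. T and NK cell markers had medians of 0 CPM in spheroid, 0.330 in nude and 0 in F1 captures, with 20 of 31 F1 captures at 0. Among nude captures, Ctsz had a median of 2131 CPM in the 23 with up to 100 CPM of myeloid markers and 2006 in the 10 with more. Among F1 captures the medians were 1623 CPM (19 captures) and 1708 CPM (12 captures). Without the captures over 100 CPM of myeloid markers the Ctsz difference was 1.92 for nude (edgeR adjusted p 5.66e-09) and 2.20 for F1 liver (edgeR adjusted p 4.17e-09). With a hepatocyte covariate, the nude difference was 1.24 (adjusted p 0.254, and between 6.29e-15 and 0.254 over 12 alternatives), while the F1 difference was 1.83 (adjusted p 3.73e-07). The hepatocyte sum was 0 in 4 of 31 F1 captures and 10 of 28 spheroid captures and above 0 in all 33 nude captures. The part of other cells in the differences of the other members was not tested beyond these fits, and fewer cells of a type cannot be told apart from less RNA per cell.

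For the promoters, 36 of the 40 members matched RefSeq entries (GRCm38.p6), with 43 windows from 250 bases before to 50 after a gene start. The E-box CACGTG, which is its own reverse complement, was in the windows of 14 of the 36 members (38.9%), or 32.6% of their windows, and in 7.15% of all 32851 windows. TCACGTG, searched on both strands and contained in the first count, was found for 12 members and in 3.77% of all windows. The same E-box with GT before and AC after it was found for 0 of 36 members and in 0.326% of all windows. Members that passed a capture test and carry CACGTG before the RefSeq start were Ctsa, Ctsd, Glb1, Lamp1, Atp6v0b, Naglu and Ctsl. All but Ctsa are shown, each with the copy nearest the start, because Ctsd (nude and F1) and Glb1 (F1) were higher and Ctsl and Atp6v0b (nude) lower in liver than in spheroids, so the same letters stand near the starts of genes of both directions. The Ctsz window is shown because Ctsz was called in both liver hosts and in RPC, and it holds none of the 3 motifs. A match is only a description of these letters. All are printed 5′ to 3′ on the gene's strand, with CACGTG in capitals. Distances are counted from the RefSeq starts. The gene coordinates in the deposited table start Ctsd, Ctsl and Naglu further upstream, so that by those the motifs of these 3 lie inside the gene.
Ctsd (chr7:142387908-142387937, minus strand, motif centre 95 bases before the start): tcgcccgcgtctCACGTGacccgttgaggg
Ctsl (chr13:64370739-64370768, minus strand, 233 bases before): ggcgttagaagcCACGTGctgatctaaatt
Glb1 (chr9:114401018-114401047, plus strand, 45 bases before): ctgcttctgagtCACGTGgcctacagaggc
Naglu (chr11:101070009-101070038, plus strand, 70 bases before): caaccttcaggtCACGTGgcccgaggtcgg
Atp6v0b (chr4:117887330-117887359, minus strand, 15 bases before): gggtcggcgcatCACGTGcgccggtcaggt
Lamp1 (chr8:13159091-13159160, plus strand, the 70 bases before the start with 4 copies): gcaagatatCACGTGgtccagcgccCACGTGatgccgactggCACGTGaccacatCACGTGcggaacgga
Ctsz (chr2:174439040-174439289, minus strand, the 250 bases before the start): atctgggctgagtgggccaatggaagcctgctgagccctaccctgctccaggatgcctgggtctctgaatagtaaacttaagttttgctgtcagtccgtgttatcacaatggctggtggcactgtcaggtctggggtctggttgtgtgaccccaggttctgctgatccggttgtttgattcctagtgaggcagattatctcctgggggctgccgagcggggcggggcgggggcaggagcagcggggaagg

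Nude liver captures were compared with spheroid captures to ask how lysosomal genes differ between a liver colony and culture. Of the 40 members, 31 were tested, 6 rose and 6 fell, 38.7% of those tested. Of all genes tested, 34.1% passed, 17.7% higher and 16.3% lower, so the members' share was near that of all genes. Their median log2 difference was -0.28, against -0.04 over all genes tested. The split over all genes, 1390 higher and 1279 lower, turned to 1758 and 2112 with limma-voom. It was 1404 and 1447 with the replicate block and 1238 and 1347 without libraries over 10% ERCC. The replicate block has a term for each library number, and these numbers did not pair the libraries. The members that rose were the proteases Ctsz, Ctsd and Ctsa, the glycosidase Hexa, and the lipid cofactors Psap and Npc2. Those that fell were Ctsl, Neu1, Grn, Ppt1, Cd63 and Atp6v0b. The 19 members that did not pass had log2 differences between -1.08 and 0.92.

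Among proteases, the aspartic protease Ctsd and the cysteine protease Ctsl moved in opposite directions. Ctsd had 0, 29.3 and 487 CPM (lowest, median and highest) in spheroid captures and 28.7, 187.5 and 2445.0 in nude captures, and 32 of 33 nude captures lay above the spheroid median. Its log2 difference was 2.41 ± 0.44 (edgeR adjusted p 9.24e-06). Ctsl had 3.16, 84.0 and 351 CPM in spheroid and 0, 5.00 and 69.4 CPM in nude captures, and all 33 nude captures lay below the spheroid median, 15 of them below the lowest spheroid capture. Ctsl fell by 3.39 on the log2 scale, with SE 0.57 (edgeR adjusted p 1.62e-06). Its exons share 1742 of 6489 bases with an antisense gene, Gm47123, and 395 with a pseudogene on the same strand, Gm49230, so some of its reads are uncertain. Exons of Ctsd share 808 of 2351 bases with Gm49369 on the same strand, which had 0 CPM in all captures and pools. Ctsa, the protective protein of lysosomal galactosidase and neuraminidase, passed on its mean (log2 difference 1.01 ± 0.41, adjusted p 0.0473) although its median was 77.1 CPM in nude and 96.7 CPM in spheroid captures. Only 13 of 33 nude captures exceeded the spheroid median of Ctsa, and 6 lay above the highest spheroid capture, up to 1390.4 CPM. The Ctsa call was kept in 3 of 12 alternatives and lost in 8, and its sign turned in 1 (-0.03 with limma-voom).

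Among glycosidases and lipid genes, changes went both ways. Hexa, a subunit of beta-hexosaminidase, had 0, 34.7 and 408 CPM in spheroid and 1.68, 131 and 439.5 CPM in nude captures, a log2 difference of 1.26 ± 0.42 (edgeR adjusted p 0.0134). Neu1, the lysosomal neuraminidase, had 0, 15.4 and 477 CPM against 0, 2.18 and 88.1 CPM and fell by 2.66 (SE 0.70, edgeR adjusted p 0.0019). The overlap was wide in both, with 30 of 33 nude captures above the spheroid median for Hexa and 25 below it for Neu1. Psap, the precursor of the saposins, had 9.74, 85.2 and 301 CPM in spheroid and 13.9, 166 and 429 CPM in nude captures (log2 difference 0.80 ± 0.26, edgeR adjusted p 0.0122). Npc2, which carries cholesterol inside the lysosome, had 6.68, 130.2 and 331 CPM against 0, 269.8 and 878 CPM (log2 difference 0.86 ± 0.32, edgeR adjusted p 0.03). Psap was above the spheroid median in 29 nude captures and Npc2 in 26. Grn, the progranulin gene, had 0.287, 52.9 and 277 CPM against 0, 10.7 and 113 CPM and fell by 1.69 (SE 0.48, edgeR adjusted p 0.00391). Ppt1, a thioesterase that removes fatty acids from proteins, had 44.7, 469.6 and 1578 CPM against 130.0, 330.5 and 1140 CPM and fell by 0.59 (SE 0.21, edgeR adjusted p 0.0216). For Grn 27 and for Ppt1 24 of 33 nude captures lay below the spheroid median.

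Of the 5 membrane proteins and 7 V-ATPase genes, 1 each passed, both lower. The tetraspanin Cd63 had 15.7, 181 and 362.5 CPM in spheroid and 8.20, 72.2 and 419 CPM in nude captures and fell by 0.96 (SE 0.29, edgeR adjusted p 0.0071). The Cd63 pseudogene copy Cd63-ps had under 1 CPM in each group, 0.192 in spheroid and 0.496 in nude captures on average. Atp6v0b, a subunit of the membrane part of the pump, had 30.6, 229 and 547.5 CPM against 0, 115 and 400.3 CPM and fell by 1.08 (SE 0.30, edgeR adjusted p 0.00307). It was below the spheroid median in 30 of 33 nude captures, and Cd63 in 27. Exons of Hexa (255 bases), Atp6v0b (243), Ppt1 (129) and Grn (68) overlap genes on the other strand. Of the 12 calls, 9 held under each of 5 other scalings, filters and tools, and those of Ctsa, Npc2 and Ppt1 did not. All 12 were lost with the hepatocyte covariate, where 131 of 7834 genes were called. All 12 kept their direction there, with differences of 0.67 to 1.75 for the 6 that rose and -3.79 to -1.07 for the 6 that fell. Of the 12, 8 were kept without the captures over 100 CPM of myeloid markers, where 2304 of 7617 genes were called. With the 9 spheroid captures that held spike-in as the only controls, 6 members and 1847 of 9507 genes were called.

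**Figure D3:**
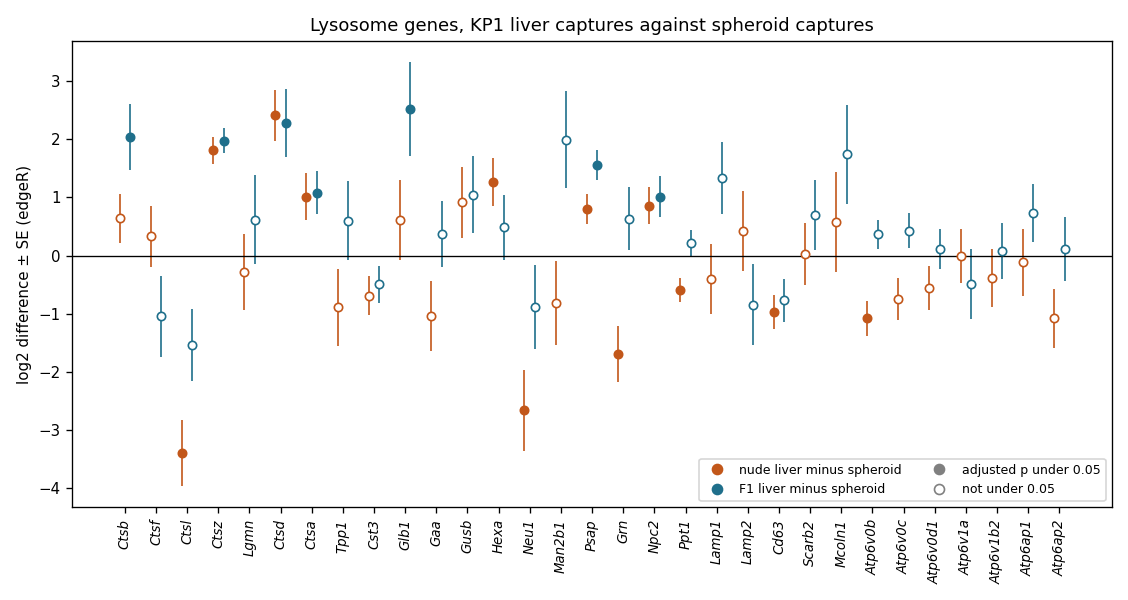
Log2 difference of liver from spheroid captures (edgeR estimate ± SE) for the members tested in at least 1 of both comparisons, nude liver in orange and F1 liver in blue; filled points have an adjusted p under 0.05. Ctsz (1.81 and 1.97), Ctsd (2.41 and 2.28), Ctsa, Psap and Npc2 are filled above 0 for both hosts, and the filled points below 0 are those of nude liver.

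F1 liver captures had 7 of 31 tested members higher than spheroids and 0 lower, 22.6% against 12.6% of all genes tested (7.73% higher and 4.91% lower). Over all genes the split was 565 higher and 359 lower, and it turned to 261 and 441 with library size alone, 416 and 1331 with limma-voom and 277 and 767 with the replicate block. The median log2 difference of the members was 0.60, and that of all genes 0.22. At an unadjusted p under 0.05, 12 of 31 members and 1971 of 7309 genes passed in either direction. Psap had 59.3, 224 and 712.5 CPM in F1 captures against 9.74, 85.2 and 301 CPM in spheroids, with 30 of 31 F1 captures above the spheroid median (log2 difference 1.55 ± 0.26, edgeR adjusted p 9.29e-06). Ctsl and Cd63 did not pass. Ctsl had 0, 2.80 and 204 CPM in F1 captures, with 28 of 31 below the spheroid median and 16 below the lowest spheroid capture (log2 difference -1.53, 95% interval -2.75 to -0.31, edgeR adjusted p 0.0929). Cd63 was below the spheroid median in 26 of 31 (-0.76, interval -1.49 to -0.04, edgeR adjusted p 0.168). Psap held in every alternative run, between 1.24 and 1.90. Ctsz and Psap were the calls that held under each of the 5 other scalings, filters and tools.

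For the other F1 calls, 4 to 8 of 31 captures lay above the highest spheroid capture. Ctsd had 0, 62.7 and 1725 CPM in F1 captures (log2 difference 2.28 ± 0.59, edgeR adjusted p 0.00524), with 20 of 31 above the spheroid median. Ctsb, a cysteine cathepsin, had 4.08, 29.5 and 207 CPM in spheroid and 0, 74.3 and 821 CPM in F1 captures (2.04 ± 0.57, edgeR adjusted p 0.00952). For Ctsb 8 F1 captures lay below the lowest spheroid capture and 4 above the highest, so the range widened at both ends. Its median was 159 CPM in the 12 F1 captures over 100 CPM of myeloid markers and 17.2 in the other 19. With the myeloid covariate fewer members were called, as were fewer genes (588 of 7309 against 924). Without the captures over 100 CPM of these markers, all F1 calls but Npc2 were kept, with 881 of 7581 genes called. Glb1, lysosomal beta-galactosidase, had 0, 5.92 and 112 CPM against 0, 7.13 and 588 CPM (2.52 ± 0.81, edgeR adjusted p 0.03), and Ctsa 96.7 against 90.3 CPM in the median with a mean of 93.3 against 179 CPM (1.08 ± 0.37, edgeR adjusted p 0.042). Npc2 had 2.13, 210.1 and 975 CPM in F1 captures (1.01 ± 0.36, edgeR adjusted p 0.0464). The Glb1 call was lost in 8 of 16 alternatives and its sign turned in 1 (-0.15 with the replicate block). Of the same 16, calls were lost in 9 for Npc2, 8 for Ctsb, 7 for Ctsa, 6 for Ctsd and 1 for Ctsz, with differences above 0 throughout. Glb1 and Ctsa thus had medians close to those of spheroids and means above them. Exons of Ctsb overlap the opposite-strand gene Fdft1 over 774 bases, and Fdft1 averaged 97.1 CPM in spheroid and 44.4 in F1 captures. Exons of Ctsa share 495 bases with Pltp and 324 with Neurl2, which averaged 5.23 and 2.68 CPM in F1 captures. Exons of Glb1 share 165 bases with Tmppe on the same strand.

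F1 libraries were split by the pseudogene Rpl19-ps11, at a level chosen after seeing the data. At 100 CPM this gave 26 captures with at least that level and 5 with less. The labels name no such sets, and levels ran from 47.1 to 1835 CPM over the F1 captures. With the 26 alone, 7 members and 1058 of 7086 genes were called, and with the 5 alone 1 member, Psap, and 379 of 10381 genes. Ctsz had a median of 1708 CPM in the 26 and 1443 in the 5, and its log2 difference with the 5 alone was 1.07 (edgeR adjusted p 0.0609, the highest of 16 alternatives, of which the lowest was 4.2e-18). Scaling by library size alone left 3 members and 702 of 7309 genes called, and moved the median of all genes from 0.22 to -0.02.

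Between hosts, 8 of 28 tested members were higher in F1 than in nude liver captures and 0 lower, 28.6% against 19.2% of all genes (11.2% higher and 7.98% lower). The members had a median log2 difference of 0.80 and all genes one of 0.26. This comparison shares its captures with the 2 before it. The members called were Ctsb, Man2b1, Psap, Grn, Ppt1, Lamp1, Atp6v0b and Atp6v0c. Grn had 0, 36.5 and 501.5 CPM in F1 captures against 0, 10.7 and 113 CPM in nude captures, a log2 difference of 2.37 ± 0.60 (edgeR adjusted p 0.00248). Atp6v0b had 63.1, 239 and 556 CPM against 0, 115 and 400.3 CPM (1.47 ± 0.30, edgeR adjusted p 0.000184), close to its median of 229 CPM in spheroids. F1 captures above the nude median numbered 24 of 31 for Atp6v0b and 19 for Grn. The 20 members that did not pass had log2 differences between -1.36 and 1.98. Among them Ctsf had medians of 2.12 CPM in F1 and 23.4 in nude captures, and Ctsd 62.7 and 187.5. Below the nude median lay 25 of 31 F1 captures for Ctsf, 21 for Ctsd and 26 for Hexa. Below the lowest nude capture lay 11, 11 and 5.

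Atp6v0c, the ring subunit of the pump, had 5.80, 238 and 786 CPM in F1 captures against 0, 146 and 791.5 CPM in nude captures (1.18 ± 0.35, edgeR adjusted p 0.0117). Ppt1 had 96.1, 414 and 1491 CPM against 130.0, 330.5 and 1140 CPM (0.83 ± 0.21, edgeR adjusted p 0.00201). Lamp1, an abundant glycoprotein of the lysosomal membrane, had 0, 34.6 and 361 CPM against 0, 4.86 and 179 CPM (1.82 ± 0.62, edgeR adjusted p 0.0285). In each of these 3 the F1 captures lay above the nude median in 20 to 22 of 31 cases, and the ranges overlapped. Psap differed by 0.78 ± 0.24 (edgeR adjusted p 0.0152). Ctsb (1.46 ± 0.54, edgeR adjusted p 0.0481) and Man2b1, lysosomal alpha-mannosidase (2.87 ± 0.82, edgeR adjusted p 0.00797), had medians of 74.3 against 71.9 CPM and 2.25 against 1.99 CPM. Above the highest nude capture lay 4 F1 captures for Ctsb and 3 for Man2b1, of which the highest had 565 CPM, and 6 F1 captures lay below the lowest nude capture for Ctsb. The Ctsb call was kept in 4 of 14 alternatives, and its sign turned in 2 (-0.10 with limma-voom and -0.04 with the F1 captures under 200 CPM of Rpl19-ps11). Exons of Lamp1 share 249 bases with Grtp1 on the other strand.

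The counts changed with the scaling. Normalization factors from edgeR's trimmed mean put the median of all genes at 0.26, library size alone at -0.15, and 3 of the 8 members, Man2b1, Atp6v0b and Grn, were called with library size alone. Over all genes the split was 794 higher and 564 lower with the trimmed mean, 667 and 684 with relative log expression factors, and 255 and 861 with library size alone. All 8 kept a difference above 0 with library size alone, between 0.33 and 2.46. Of the 8 calls, only that of Atp6v0b held under each of the 5 other scalings, filters and tools. Without captures over 100 CPM of myeloid markers, which were 12 of 31 F1 and 10 of 33 nude captures, 793 of 6587 genes were called. Atp6v0b and Grn were among them, and Man2b1 was not tested. The other 5 did not pass, at differences of 2.18 for Lamp1, 1.32 for Ctsb, 1.19 for Atp6v0c, 0.70 for Psap and 0.65 for Ppt1. Hepatocyte sums had medians of 911 CPM in nude and 199 in F1 captures, and with the hepatocyte covariate the calls of Ppt1, Lamp1, Atp6v0b and Grn were kept and those of Psap (0.64), Man2b1 (1.90), Ctsb (1.23) and Atp6v0c (0.91) lost. With the 5 F1 captures low in Rpl19-ps11 alone, Ppt1 was called among 223 of 10754 genes.

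**Figure D4:**
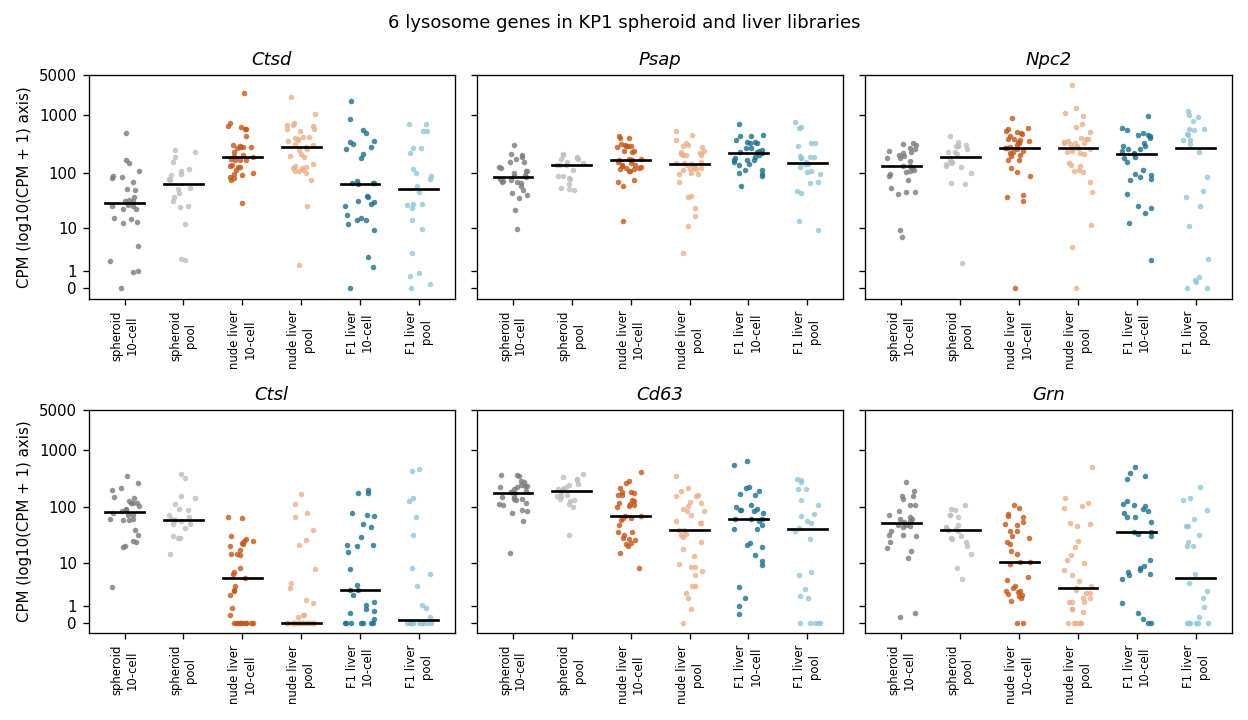
Each panel plots 1 gene in every KP1 spheroid and liver library, in CPM on a log10(CPM + 1) axis, with bars at group medians. Ctsd, Psap and Npc2 (top) have higher medians in nude liver captures than in spheroid captures, and Ctsl, Cd63 and Grn (bottom) lower ones, with points at 0 in the liver groups.

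RPC spheroids were compared with KP1 spheroids to set the precursor line beside the tumour line in culture. Of 32 members tested, 3 were lower and 2 higher, 15.6% against 21.9% of all genes (10.3% higher and 11.6% lower). The split over all genes, 882 higher and 999 lower, turned to more higher than lower in all 8 alternatives, among them 1131 and 826 with relative log expression factors, 1119 and 665 with library size alone and 2042 and 1054 with limma-voom. The median log2 difference of the members was -0.09 and that of all genes 0.01. Ctsz, Ppt1 and Cd63 fell, and Cst3 and Naglu rose. The lines differ in origin as well as in genotype, and each is 1 line.

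Ctsz had 0, 3.82 and 250.3 CPM in RPC captures against 52.3, 536 and 1464 CPM in KP1, and 22 of 24 RPC captures lay below the lowest KP1 capture. It had counts in 16 of 24 RPC captures. Ctsz fell by 5.17 on the log2 scale (SE 0.72, edgeR adjusted p 8.25e-08), a 36.0-fold lower level. Its neighbour Nelfcd, which shares 10 of 1441 exon bases with Ctsz on the other strand, averaged 444 CPM in KP1 and 437 in RPC captures. Ppt1 had 2.18, 10.3 and 199 CPM in RPC against 44.7, 469.6 and 1578 CPM in KP1, with 21 of 24 RPC captures below the lowest KP1 capture (log2 difference -4.29 ± 0.44, edgeR adjusted p 2.59e-12). The calls of Ctsz, Ppt1 and Cst3 held in all 8 alternatives. Ppt1 lies on chromosome 4 at 122836242 to 122859175, and of the 25 genes tested in the 4 Mb from 120 Mb on, a stretch picked after its values were seen, 22 were lower and 1 higher in RPC, with a median log2 difference of -3.76.

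Cst3, which encodes cystatin C, a secreted inhibitor of cysteine cathepsins, was higher in RPC. It had 41.6, 93.8 and 325.0 CPM in KP1 and 113, 457 and 771 CPM in RPC captures, and all 24 RPC captures lay above the KP1 median, 17 of them above the highest KP1 capture (log2 difference 1.52 ± 0.25, edgeR adjusted p 2.19e-06). Naglu, which acts on heparan sulphate, was low, with 0, 0 and 16.5 CPM in KP1 and 0, 2.86 and 113 CPM in RPC (2.28 ± 0.77, edgeR adjusted p 0.0243). Cd63 had 0, 91.8 and 327 CPM in RPC against 15.7, 181 and 362.5 CPM in KP1 and fell by 1.09 (SE 0.35, edgeR adjusted p 0.0168). The Cd63 and Naglu calls were each lost in 3 of 8 alternatives. Summed stellate and fibroblast markers had medians of 55.3 CPM in KP1 and 0 in RPC captures, and myeloid markers 5.13 and 17.5 CPM. Their part in these differences was not tested.

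**Figure D5:**
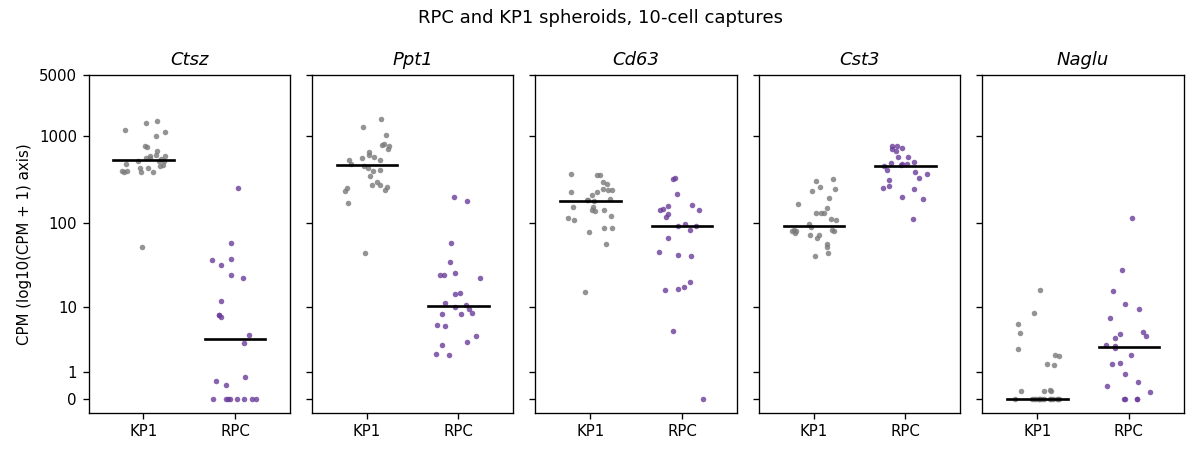
Each point is 1 spheroid capture of KP1 (grey, 28) or RPC (purple, 24), in CPM on a log10(CPM + 1) axis, with bars at medians. Ctsz and Ppt1 are mostly below the KP1 range in RPC captures, Cst3 mostly above it, and Cd63 and Naglu overlap.

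In the pools, 31 members were tested between nude liver and spheroid, 4 were higher and 6 lower, 32.3% against 25.6% of all genes (16.5% higher and 9.13% lower). The split over all genes, 1323 higher and 731 lower, turned to 1363 and 1510 with DESeq2, 1288 and 3503 with limma-voom and 1050 and 2321 with the replicate block. Ctsz, Ctsd, Npc2 and Npc1, the membrane partner of Npc2, were higher. Ctsd had 2.06, 64.2 and 247 CPM in spheroid and 1.57, 281.5 and 2061 CPM in nude liver pools (2.32 ± 0.45, edgeR adjusted p 4.38e-05), and 20 of 35 nude pools lay above the highest spheroid pool. Npc2 differed by 1.23 ± 0.45 (edgeR adjusted p 0.0343), and Npc1, with medians of 0.604 and 2.36 CPM, by 1.94 ± 0.64 (edgeR adjusted p 0.0192). Exons of Npc1 share 511 bases with Rmc1 on the other strand, which averaged 6.14 CPM in spheroid and 10.6 in nude liver pools. Lower were Ctsl, Cd63, the tripeptidyl peptidase Tpp1 and the V-ATPase genes Atp6v1b2, Atp6ap1 and Atp6ap2. Ctsl had 14.7, 61.3 and 389 CPM in spheroid pools and 0, 0 and 169.8 CPM in nude liver pools, 28 of 35 below the lowest spheroid pool (log2 difference -2.66 ± 0.85, edgeR adjusted p 0.0142). Cd63 fell by 1.35 (SE 0.46, edgeR adjusted p 0.0227). Ctsz, Ctsd, Npc2, Ctsl and Cd63 were called in the same direction in captures and pools, 5 of 12 calls in captures and 5 of 10 in pools. Over all genes, the calls shared in direction were 47.2% of those in captures and 61.4% of those in pools. All 12 capture calls were tested in pools, and 11 had the same sign there (Ctsa did not, at -0.12), against 92.5% of all genes called in captures. With the hepatocyte covariate all 10 pool calls were lost, 51 of 8010 genes were called, and the 10 differences kept their direction, at 1.02 to 2.06 and -3.42 to -0.92.

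The 3 pump genes that fell in nude liver pools belong to the peripheral ATP-binding part (Atp6v1b2) and to accessory subunits (Atp6ap1 and Atp6ap2). Atp6v1b2 had 2.47, 91.7 and 341 CPM in spheroid pools and 0, 1.31 and 143 CPM in nude liver pools (log2 difference -2.32 ± 0.73, edgeR adjusted p 0.0128). Atp6ap1 differed by -1.66 ± 0.64 (edgeR adjusted p 0.0468) and Atp6ap2 by -1.83 ± 0.63 (edgeR adjusted p 0.0238). In captures the same 3 genes had log2 differences of -0.39, -0.12 and -1.08 and did not pass. Tpp1 had a median of 9.25 CPM in spheroid and 0 in nude liver pools (-2.70 ± 0.75, edgeR adjusted p 0.00461).

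F1 liver pools had 2 of 30 tested members higher than spheroid pools, Ctsz and Psap, and 0 lower, 6.67% against 11.6% of all genes (8.94% higher and 2.65% lower). The split over all genes, 648 higher and 192 lower, turned to 275 and 397 with library size alone, 703 and 767 with DESeq2, 398 and 2957 with limma-voom and 248 and 1826 with the replicate block. Spike-in took a median of 13.2% of counts in F1 pools and 0.00265% in spheroid pools, and without the 17 of 24 F1 pools over 10% the split was 684 and 734, with 7 F1 pools left. Psap had 48.9, 137.6 and 209 CPM in spheroid pools and 9.43, 149 and 771 CPM in F1 pools (1.28 ± 0.41, edgeR adjusted p 0.0313). This call was lost in 8 of 14 alternatives, where the difference stayed above 0 and adjusted p reached 0.509. Ctsl did not pass (-0.20, interval -2.03 to 1.63, edgeR adjusted p 0.921), although 18 of 24 F1 pools lay below the lowest spheroid pool, and the medians were 0.139 and 61.3 CPM. Below the lowest spheroid pool also lay 14 F1 pools for Atp6ap2, 13 for Hexa, 12 for Grn and 11 each for Cd63 and Neu1, none of which passed. Above the highest spheroid pool lay 4 for Atp6ap2, 3 each for Hexa and Grn, 2 for Neu1 and 0 for Cd63. Ctsz and Psap were also called in F1 captures, 2 of the 7 calls there, and over all genes 31.2% of capture calls were called in the same direction in pools. Of the 7, 6 had the same sign in pools (Ctsa did not, at -0.20), against 86% of all genes called in captures. Between F1 and nude liver pools, 1 of 25 members was called, 4% against 12% of all genes (8.2% higher and 3.79% lower). The split over all genes, 493 higher and 228 lower, turned to 169 and 379 with library size alone, 226 and 610 with limma-voom, 64 and 140 with the replicate block, and 2373 and 3484 with no filter. The member called was Atp6ap2 (2.84 ± 0.80, edgeR adjusted p 0.0138), with medians of 7.66 and 7.53 CPM and means of 140 and 26.2 CPM. Without the 17 F1 pools and the 3 of 35 nude pools with over 10% spike-in, the split was 261 and 339 and the Atp6ap2 difference was -1.13 (edgeR adjusted p 0.631, the highest of 14 alternatives, of which the lowest was 0.000506). Of the 8 members called between hosts in captures, 0 were called in pools. Over all genes 21.8% of capture calls were called in the same direction in pools. Of the 8, 7 were tested in pools and all 7 had the same sign there, against 84.2% of all genes called in captures.

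Whether captures and pools differ in the liver effect was tested directly. For nude liver, 0 of 34 members passed (1.94% of all genes did, 1.34% higher and 0.602% lower). At an unadjusted p under 0.05 in edgeR, 2 members and 1505 of 10471 genes passed. For F1 liver, 1 of 33 passed (4.06% of all genes, 2% higher and 2.05% lower), Man2b1, by 5.03 ± 1.28 (edgeR adjusted p 0.00991). The call was lost with the replicate block (4.19, edgeR adjusted p 0.271, the highest of 3 alternatives, of which the lowest was 0.00299). The library numbers used as blocks did not pair the libraries. Man2b1 averaged 39.3 CPM in F1 captures and 0.694 CPM in F1 pools, against 10.7 and 7.84 CPM in spheroid captures and pools. Counts were present in 25 of 31 F1 captures and 8 of 24 F1 pools. Spike-in took a median of 2.16% of counts in F1 captures and 13.2% in F1 pools, and its part here was not tested.

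Spread was measured as how far each library lay from its group's median log2(CPM + 1), without sign, to ask whether captures vary more than the method does. Liver pools held more spike-in than liver captures, with medians of 5.94% against 0.969% in nude and 13.2% against 2.16% in F1 liver. Its part in the spread was not tested. In spheroids 0 of 32 members and 0% of all genes passed in limma, with 1 member and 525 of 8635 genes at an unadjusted p under 0.05. In nude liver it was 0 of 32 members and 0.734% of all genes (0.553% with more spread in captures and 0.181% with less). At an unadjusted p under 0.05 there were 3 members and 1364 of 9399 genes. The F1 captures and pools differed in 2 of 32 members, against 1.45% of all genes (0.503% with more spread in captures and 0.948% with less). For Man2b1, which had counts in 8 of 24 F1 pools, the deviation in pools is held near 0 by the many libraries without counts, so its call, lost in 2 of 2 alternatives, is not read as spread. Atp6v0b deviated less in captures (0.732 log2 units on average) than in pools (2.38), by -1.65 ± 0.32 (limma adjusted p 0.00325). That call was lost in 1 of 3 alternatives, the replicate block (-1.65, limma adjusted p 0.0825, with the others between 0.00409 and 0.00556). Ctsz deviated by 0.541, 0.717 and 0.508 log2 units in spheroid, nude and F1 captures and by 0.440, 0.644 and 0.986 in the pools. It passed in none of the 3 (limma adjusted p 0.961, 0.875 and 0.242).

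The cathepsins best known from immune cells had few or no counts. Ctss had no count in the 28 spheroid captures, which allows up to 0.0241 CPM over the group (3 counts, counting error only), and none in the 24 RPC captures. Counts were present in 4 of 33 nude captures, up to 27.1 CPM, and in 8 of 31 F1 captures, up to 39.7 CPM. Ctsc and Ctsh likewise had no count in spheroid captures. Ctsc had counts in 4 nude and 9 F1 captures, up to 61.7 and 21.1 CPM, and Ctsh in 16 and 9, up to 37.2 and 67.5 CPM. The medians of all 3 were 0 in each of the 4 capture groups. Among the 12 F1 captures with over 100 CPM of myeloid markers, 5 had Ctss counts and 6 Ctsc counts, and among the other 19 each had 3. Among nude captures Ctss had counts in 1 of 10 with over 100 CPM and in 3 of 23 others, and Ctsc in 2 of 10 and 2 of 23. Both were too low for the tests. The remaining untested members were Ctso, Lipa and Gla, whose highest capture values were 40.5, 50.1 and 95.6 CPM, and Npc1 and Tfeb, with 64.3 and 43.8 CPM.

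Of 77 further lysosomal genes, 47 were tested between nude liver and spheroid captures. Of those 3 rose and 11 fell, 29.8% against 34.1% of all genes, with a median log2 difference of -0.63. Among them the mTORC1 anchor genes Rragc (-1.35 ± 0.23, edgeR adjusted p 2.72e-06), Rraga (-3.06 ± 0.63, edgeR adjusted p 7.26e-05) and the cytosolic cathepsin inhibitor Cstb (-2.60 ± 0.52, edgeR adjusted p 5.46e-05) fell, and the fucosidase Fuca1 rose (1.40 ± 0.36, edgeR adjusted p 0.0017). Between F1 liver and spheroid captures 1 of 44 rose and 3 fell, 9.09% against 12.6% of all genes, with a median of -0.22. Cstb fell there too, by 1.80 (SE 0.51, edgeR adjusted p 0.0122). Between F1 and nude captures 3 of 39 were higher, 7.69% against 19.2% of all genes, and Rragc was one (0.90 ± 0.26, edgeR adjusted p 0.00721). Between RPC and KP1 0 of 49 rose and 7 fell, 14.3% against 21.9% of all genes, with Rragc at -3.76 ± 0.33 (edgeR adjusted p 5.51e-15). Rragc lies at 123917446 to 123936997 on chromosome 4, in the same stretch as Ppt1.

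Bulk RNA went through a different library protocol, with 1 library a line, so the values stand side by side with no test. Ctsz had 240.2 CPM in KP1, 88.1 in KP2, 71.1 in KP3 and 70.4 in KP5, and KP1 was the highest. Ppt1 had 899.9, 488, 256 and 558 CPM in the same order, so KP1 was the highest again. Psap had 505, 369.5, 411 and 494 CPM and Ctsd 81.7, 80.7, 82.1 and 94.0 CPM, a range of under 1.5-fold in each. Ctss had 0 CPM in 3 lines and 0.0659 in KP5, and Ctsc 8.30 CPM in KP5 and at most 0.401 in the others. In KP1, bulk and spheroid captures differed for single members in both directions. Lamp1 had 219.6 CPM in bulk and 34.2 on average in captures, Npc1 53.2 and 3.85, and Ctsz 240.2 and 628. Protocol and sample size differ together here and cannot be told apart.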

How the data were processed

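The deposited table holds expected counts per gene made by the authors (89.3% of values are whole numbers), for 31581 genes and 92 ERCC rows in 199 libraries, on GRCm38. The submitters' processing notes name RSEM, Bowtie2, GRCm38 and GRCh38.p12, without roles or versions; the annotation release is not given in the sources used here. Counts were rounded for the count models, and ERCC rows were kept out of library sizes and tests. Captures have no molecular identifiers, so limits from counts cover counting error only. Total counts per library set the precision, and levels under about 1 CPM rest on a few counts.

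Groups came from the sample labels. Mean levels were compared with edgeR 4.0.16 in R 4.3.3 (trimmed-mean scaling, filterByExpr, quasi-likelihood test, robust), with only the groups compared in each fit, and p-values were adjusted by Benjamini-Hochberg over all genes tested. Differences between captures and pools in an effect came from 1 fit with an interaction term. Spread was tested with limma 3.58.1 above a mean of 5 CPM, that value included. In all, 12 results were tested. The SE of an edgeR log2 difference is its size divided by the square root of F, and intervals are 95% (1.96 SE). Fold changes follow edgeR's scaling and can differ from ratios of mean CPM. The fits were tested on simulated data. Alternatives were relative log expression or library size scaling, no filter, DESeq2 1.42.0, limma-voom, a replicate block, hepatocyte and myeloid covariates, subsets by ERCC share and by Rpl19-ps11, and for spread a pseudocount of 10 and a filter at 20 CPM. Leaving out libraries over 10% ERCC or over 100 CPM of myeloid markers, and the Rpl19-ps11 split at 100 CPM, were chosen after seeing the data. The members, the wider list, the markers and the tests were chosen with earlier results of these data known, among them the liver level of Ctsz. Members are named by role, with values for those called; of the wider list up to 4 called genes per comparison are named, those with the smallest adjusted p and at least 10 CPM in the higher group. Promoter sequences are RefSeq's (GRCm38.p6); coordinates of 38 of 40 members equal those of GENCODE M21.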

Additional observations from a re-analysis of the deposited data

Results flagged for a closer look

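These results are listed because a test of the difference between groups or sample types passed. Between captures and pools, the F1 liver effect on Man2b1 differed by 5.03 log2 units, a call lost with the replicate block (4.19, edgeR adjusted p 0.271). Between F1 and nude liver captures, the log2 difference was 0.78 for Psap, 2.87 for Man2b1, 1.46 for Ctsb, 1.18 for Atp6v0c, 0.83 for Ppt1, 1.82 for Lamp1, 1.47 for Atp6v0b and 2.37 for Grn. In pools it was 2.84 for Atp6ap2, and 0 of the 8 members called in captures were called there. The values between hosts are F1 minus nude liver. For Atp6v0b, Ppt1 and Grn the nude difference from spheroid was a fall (-1.08, -0.59 and -1.69) and the F1 difference was not called (0.37, 0.21 and 0.63). No explanation was tested.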

How the results depend on the processing

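Of 556 values of the 48 member calls under the alternatives, 398 kept direction and call, 153 kept direction and lost the call, and 5 changed sign. The calls kept in every alternative run were 5: Ctsz, Ppt1 and Cst3 in RPC, Psap in F1 captures and Ctsz in F1 pools, each against KP1 spheroids. Sign changes were Ctsa in nude captures (-0.03) and Ctsb in F1 against nude captures (-0.10) under limma-voom, Ctsb there with F1 captures under 200 CPM of Rpl19-ps11 (-0.04), Glb1 in F1 captures with the replicate block (-0.15) and Atp6ap2 in F1 against nude pools without libraries over 10% ERCC (-1.13). The cause was not tested.

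Members called changed by over 1.5 times as follows, with the standard count in brackets. Here nude and F1 mean that liver against spheroid, and host means F1 against nude liver. Under the standard settings, all genes called numbered 2669 in nude captures, 924 in F1 captures, 1358 in host captures and 1881 in RPC. In pools they numbered 2054 for nude, 840 for F1 and 721 for host. DESeq2 gave 4 in F1 pools (2) and 2 in host pools (1), with 1470 and 1089 called over all genes. Limma-voom gave 4 in F1 captures (7), 9 in RPC (5), 20 in nude pools (10), 13 in F1 pools (2) and 2 in host pools (1). It moved all genes too, with 4791 of 8010 called in nude pools, 3503 of them lower, and 3355 of 7249 in F1 pools, 2957 of them lower. All genes called were 1747 in F1 captures, 3096 in RPC and 836 in host pools. No filter gave 12 in F1 captures, 8 in RPC, 6 in F1 pools, 5 in host pools and 4 for captures against pools in the F1 effect (1). Over all genes it gave 5072 of 19000 in F1 captures, 6115 of 19396 in RPC, 5224 of 18440 in F1 pools and 5857 of 19852 in host pools. Library size alone gave 3 in F1 captures, 3 in host captures (8) and 1 in F1 pools, and relative log expression 1 in F1 pools. All genes called were 702, 1116 and 672 with library size alone, and 853 with relative log expression. The hepatocyte covariate gave 0 in nude captures (12), 4 in host captures, 0 in nude pools, 1 in F1 pools and 0 in host pools. Over all genes it gave 131, 911, 51, 836 and 213 in the same order. The myeloid covariate gave 3 in F1 captures and 0 in host pools, and over all genes 588 and 504. Spheroid captures with spike-in alone gave 6 in nude captures and 2 in F1 captures, and those without gave 4 in F1 captures and 3 in RPC. Over all genes these were 1847 of 9507 and 174 of 8897, and 676 of 7861 and 1614 of 8755. F1 libraries with Rpl19-ps11 under 100 CPM gave 1 in F1 captures, 1 in host captures, 6 in F1 pools and 3 in host pools, those under 200 CPM gave 2, 2, 6 and 2, those of at least 100 CPM gave 2 in host pools and those of at least 200 CPM gave 1 in F1 pools. All genes called were 379, 223, 1890 and 295 under 100 CPM and 358, 302, 1734 and 372 under 200 CPM. For the last 2 they were 791 and 1066. Without libraries over 10% ERCC it was 4 in F1 pools and 0 in host pools, and without those over 100 CPM of myeloid markers 3 in host captures. Over all genes these were 1418 of 9368, 600 of 8689 and 793 of 6587. For spread in F1 liver (2) a pseudocount of 10 and a filter at 20 CPM each gave 1.

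Capture numbers did not pair the libraries: same-numbered libraries had median correlations between -0.005 and 0.005 of their deviations. A call lost under the replicate block is therefore not read as an effect of shared animals or cultures. The replicate block gave 4 in host captures, 6 in F1 pools, 0 in host pools, 0 for captures against pools in the F1 effect and 0 for spread in F1 liver. All genes called with it were 918 in host captures, 2074 in F1 pools and 204 in host pools. In captures, 8 of 40 members had too few counts for any comparison, and of them Ctsc and Ctss had 0 CPM in KP1 bulk at 17266203 counts and Ctsh 0.200.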
